A study of Mus musculus with 67 samples.

Results

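The members described here were the 78 protein-coding mouse genes whose symbols begin with Mrpl or Mrps followed by a number, the genes for the proteins of the mitochondrial ribosome, with pseudogenes left out. They comprised 49 Mrpl genes, named for the large ribosomal subunit, and 29 Mrps genes, named for the small subunit, and they were 78 of 21794 protein-coding genes in the B cell tables and of 21786 in the T cell tables. All 78 had reads in both tables and passed the filter on low counts in every comparison. The members lay on 17 chromosomes, with 11 on chromosome 11, and none was on chromosome 18. B cells and CD4+ T cells were enriched with magnetic kits from spleen and lymph nodes of adult C57BL/6 mice of both sexes, which had either been immunized with MOG peptide to induce experimental autoimmune encephalomyelitis (EAE) or were naive. There were 5 arms, and stimulation lasted 18 h. How long the unstimulated cells were cultured, if at all, is not stated in the labels or methods. In 2 of these arms the beads carried anti-Btla (clone 6A6), antiBtla with soluble IFNb (antiBtla_IFNb) and antiBtla alone, in 2 they carried a control Ig, with IFNb (CtrlIg_IFNb) or without it (CtrlIg), and 1 arm was unstimulated. All 4 bead arms received antigen-receptor stimulation from the same latex beads, anti-IgM/IgG for B cells or anti-CD3 for T cells. Btla is an inhibitory receptor of lymphocytes, and the question of the series was what its engagement does to stimulated cells. With 2 cell types, 2 states and 5 arms there were 20 groups of 3 libraries, 60 libraries in all.

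Mitochondria keep a small genome whose protein genes encode only subunits of the oxidative phosphorylation complexes, and a dedicated ribosome inside the organelle translates them. Every protein of that ribosome is encoded in the nucleus, made in the cytosol and imported. Some of these proteins have a counterpart in bacterial ribosomes and others were acquired by mitochondria. Lymphocytes that are activated through the antigen receptor enlarge and increase their mitochondrial mass and respiration.

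Start sites were examined because the members moved together. RefSeq promoter windows of GRCm38.p6, 250 bases before to 50 bases after the start, were matched for 69 of the 78 members. The letters CCGGAAG, the core bound by ETS factors, were found on either strand in 34.8% of the 69 member windows, against 12.3% of 16522 windows of all genes. AAGATGG, the core bound by YY1, was in 18.8% of member windows against 6.43%, and GCATGCG, a core bound by NRF1, was in 11.6% against 4.67%. The E-box CACGTG, a site of Myc and its partners, was in 7.25% against 8.09%, and CCAAT was in 39.1% against 38.8%. Of the other 4 motifs searched on both strands, GGGCGG was in 49.3% against 48.2%, TGACGTC in 5.80% against 4.13%, TTCCCGC in 7.25% against 6.22% and TATAAA in 5.80% against 12.9%. The last 3 letters of CCGGAAG are the first 3 of AAGATGG, so matches of that pair can share bases, and a match is a description of the sequence only. Among the members, 18 of the 78 (23.1%) started within 1000 bases of a divergent neighbour on the other strand, against 6.77% of 21992 protein-coding genes. These counts used gene starts of the GENCODE annotation, not the RefSeq starts. Divergent pairs whose ends overlap, such as Mrpl46 and Mrps11, were not counted. The windows of 5 members with an ETS core are printed to show that it stands in front of members with different values below. Mrpl52 and Mrps27 were called lower with anti-Btla in EAE B cells. Mrpl58 was called higher on activation in B cells and lower in T cells. Mrps18a and Mrps26 were not called for anti-Btla in B cells when all transcripts were counted. On protein-coding transcripts alone Mrps18a was called lower in naive B cells, as given below. Each printed window is the 120 bases before the start on the plus strand, 5′ to 3′, with an ETS or YY1 core in capitals. CTTCCGG is the same ETS core read on the other strand.
Mrpl52, chr14:54426789-54426908: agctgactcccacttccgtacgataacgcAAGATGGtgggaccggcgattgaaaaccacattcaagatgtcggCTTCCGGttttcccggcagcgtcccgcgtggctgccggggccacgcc
Mrps27, chr13:99344666-99344785: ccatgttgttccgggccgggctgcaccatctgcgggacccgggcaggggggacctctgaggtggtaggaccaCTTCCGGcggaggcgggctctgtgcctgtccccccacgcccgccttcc
Mrpl58, chr11:115403632-115403751: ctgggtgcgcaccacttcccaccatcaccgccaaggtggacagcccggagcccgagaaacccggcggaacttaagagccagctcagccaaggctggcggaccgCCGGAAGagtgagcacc
Mrps18a, chr17:46110884-46111003: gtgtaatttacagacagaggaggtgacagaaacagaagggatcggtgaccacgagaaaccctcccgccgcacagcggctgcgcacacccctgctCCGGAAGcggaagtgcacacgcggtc
Mrps26, chr2:130563637-130563756: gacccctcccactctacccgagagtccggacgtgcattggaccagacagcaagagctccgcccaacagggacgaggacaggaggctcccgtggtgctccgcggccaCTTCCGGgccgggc
The median effect of anti-Btla in naive B cells was -0.43 on the log2 scale for the 24 members with an ETS core and -0.42 for the 45 without one. For the other motifs the medians with the motif ran from -0.54 (CACGTG, 5 members) to -0.29 (TGACGTC, 4 members). Without the motif they ran from -0.46 to -0.42. No difference between members with and without a motif was tested.

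In units of 1000000 estimated counts, B cell libraries held 6.69 to 62.1 (median 33.0) and T cell libraries 7.33 to 34.2 (median 13.2). B cell markers summed to 3426 to 6069 CPM (a gene's counts per 1000000 counts of the library) in B cell libraries and T cell markers to 14.7 to 32.5 CPM, with all 6 B cell markers present. T cell libraries held 1692 to 2955 CPM of T cell markers. Both CD8 T cell markers, Cd8a and Cd8b1, were also present, with group means of 14.8 CPM in CtrlIg and 22.9 CPM in unstimulated EAE T cells, against 659 and 996 CPM in naive T cells. In such bulk libraries fewer cells of a type and less RNA per cell cannot be told apart. The labels do not say whether the 3 libraries of a group came from separate animals, so p-values measure the spread between these libraries, which may be technical. Throughout, values are given as CPM per library in the order of replicates 1 to 3, group means with SD (n = 3), and log2 differences with their standard error. A gene was called at an adjusted p under 0.05 in edgeR's quasi-likelihood F-test, with Benjamini-Hochberg adjustment over all genes tested.

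Most members stood close together in level. Per transcript length, in the deposited TPM (transcript abundance scaled for length and depth), the median member stood at 25.4 TPM in B cells (7.18 to 756) and at 22.6 TPM in T cells (6.89 to 587). Highest in mean TPM over all 60 libraries were Mrpl52 (672 TPM), a large-subunit protein without a bacterial counterpart, Mrps21 (160.5 TPM), Mrpl30 (115 TPM) and Mrps14 (83.0 TPM). These first values rest on very short annotated transcripts, since with transcripts of 300 bases or more Mrpl52 stood at 198 TPM and Mrps21 at 55.9 TPM. Lowest were Mrpl44 (7.64 TPM), a protein with a ribonuclease III fold, Mrpl28 (8.18 TPM), Mrps11 (8.80 TPM) and Mrps30 (8.90 TPM), which despite its name sits in the large subunit. A median of 84.4% of a member's counts in B cells and 82.5% in T cells fell on protein-coding transcripts, and in 12 members less than 50% did in each cell type. Exons of another gene overlapped 8 members on the same strand and 28 on the opposite strand, and whether the counting used strand is not given in the sources used here, so such members may share counts with their neighbours.

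Summed over the 78 members, B cells held more of this RNA after stimulation, and anti-Btla cells held about as much as unstimulated ones. In naive B cells the sum was 2082, 1957 and 2069.8 CPM in the antiBtla libraries, 2533, 2686 and 2430.0 CPM in CtrlIg and 1920.3, 1989.9 and 1907 CPM in unstimulated libraries. EAE B cells gave 2166, 2089 and 1923 CPM with antiBtla, 2654, 2473 and 2383 CPM with CtrlIg and 2071, 2064 and 1826 CPM unstimulated. In both states every CtrlIg library lay above every antiBtla and every unstimulated library. The group mean with antiBtla was 0.799 times that with CtrlIg in naive and 0.823 times in EAE B cells, and CtrlIg stood 1.31-fold and 1.26-fold above unstimulated cells. T cells gave another order. Naive T cells held 2163, 2106 and 2054 CPM with antiBtla, 2123, 2150.3 and 2029 CPM with CtrlIg and 1594, 1536 and 1546 CPM unstimulated, and EAE T cells held 2435, 2132 and 2160.0 CPM with antiBtla, 2562, 2304 and 2369 CPM with CtrlIg and 1346, 1273 and 1311 CPM unstimulated. Every library of both bead arms lay above every unstimulated one. CtrlIg stood 1.35-fold above unstimulated cells in naive and 1.84-fold in EAE T cells, while the mean with antiBtla was 1.00 times that with CtrlIg in naive and 0.930 times in EAE T cells. The arms with IFNb lay close to those without it in B cells, with 2018 ± 32.3 CPM in antiBtla_IFNb and 2529 ± 100.2 CPM in CtrlIg_IFNb naive B cells, and 1962 ± 98.5 CPM in antiBtla_IFNb and 2438 ± 78.1 CPM in CtrlIg_IFNb EAE B cells (SD, n = 3 each). Naive T cells held 2108 ± 70.1 CPM in antiBtla_IFNb and 2113 ± 92.7 CPM in CtrlIg_IFNb, and EAE T cells 1965 ± 111 CPM and 2186 ± 149.5 CPM in the same arms.

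**Figure D1:**
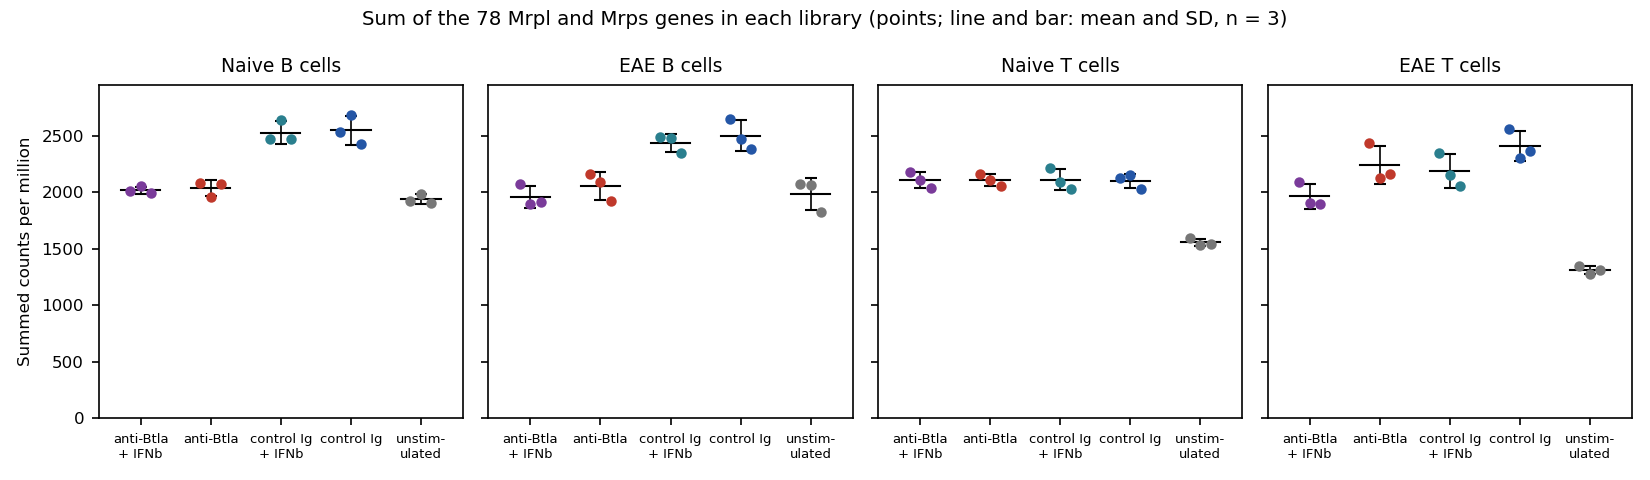
Summed CPM of the 78 mitochondrial ribosomal protein genes in each of the 60 libraries, in 4 panels for naive and EAE B and T cells with the 5 arms on the horizontal axis; points are libraries, lines group means and bars SDs. In B cells the CtrlIg libraries lie above the antiBtla and unstimulated ones, whereas in T cells all stimulated arms lie above the unstimulated one.

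In B cells, activation raised nearly all of the members and lowered none. In naive B cells 70 of 78 were higher in CtrlIg than in unstimulated cells and 0 lower, where 22.7% of all 16635 genes tested were called higher (40.2% in either direction). The median log2 difference was 0.54 over the members and -0.02 over all genes. In EAE B cells 68 were higher and 0 lower (21% of genes higher), with a median of 0.49 against -0.05 over all genes. The CPM of the CtrlIg and unstimulated libraries did not overlap, CtrlIg being higher, for 62 members in naive B cells (18.7% of genes) and for 47 in EAE B cells (15.4%). Of the 70 members called in naive B cells 65 were also called in EAE B cells (92.9% of the first list and 95.6% of the second). The share of all genes called in both was not counted. The difference of the 2 effects was called by edgeR for no member and for 0.0865% of genes (15 of 17341). At an unadjusted p under 0.05 there were 5 members and 4.87% of genes.

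Anti-Btla lowered most members in B cells and raised none. In naive B cells 65 of 78 members were lower in antiBtla than in CtrlIg cells and 0 higher, where 19.7% of genes were called lower, and the median was -0.43 over the members and 0.01 over all genes. In EAE B cells 50 were lower and 0 higher (16.5% of genes lower, 30.1% in either direction), with a median of -0.39 against 0.04 over all genes. For IFNb itself no gene was called in B cells, as given below. In the arms labelled with IFNb, antiBtla_IFNb cells were lower than CtrlIg_IFNb cells in 64 members in naive B cells (17.5% of genes) and in 60 in EAE B cells (17.4%), with a median of -0.41 in each, and 0 were higher. These comparisons used separate libraries from those without IFNb, and 61 members in naive and 46 in EAE B cells were called in both. The share of all genes called in both was not counted. Groups did not overlap, anti-Btla being lower, for 53 members in naive B cells (17.3% of genes) and 38 in EAE B cells (14.5%). The anti-Btla and activation effects share the CtrlIg libraries, so their opposite signs are not independent. Leading members in the presence of IFNb were Mrpl36 (-0.68 ± 0.08, edgeR adjusted p = 1.2e-05, naive; -0.66 ± 0.07, edgeR adjusted p = 6.1e-06, EAE) and Mrpl21 (-0.63 ± 0.08, naive; -0.76 ± 0.08, EAE), with Mrpl16 (-0.53 ± 0.07) and Mrpl30 (-0.44 ± 0.06) in naive and Mrps18b (-0.69 ± 0.08) and Mrps28 (-0.92 ± 0.12) in EAE B cells. Neither the difference of anti-Btla effects between EAE and naive B cells nor that with and without IFNb was called by edgeR for any member or any gene. At an unadjusted p under 0.05 there were 0 members for EAE against naive (3.11% of genes). For with against without IFNb there were 2 in naive (3.40% of genes) and 1 in EAE B cells (2.2%). Without the replicate block the count of 50 in EAE B cells was 30, and the count of 60 with IFNb was 32.

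**Figure D2:**
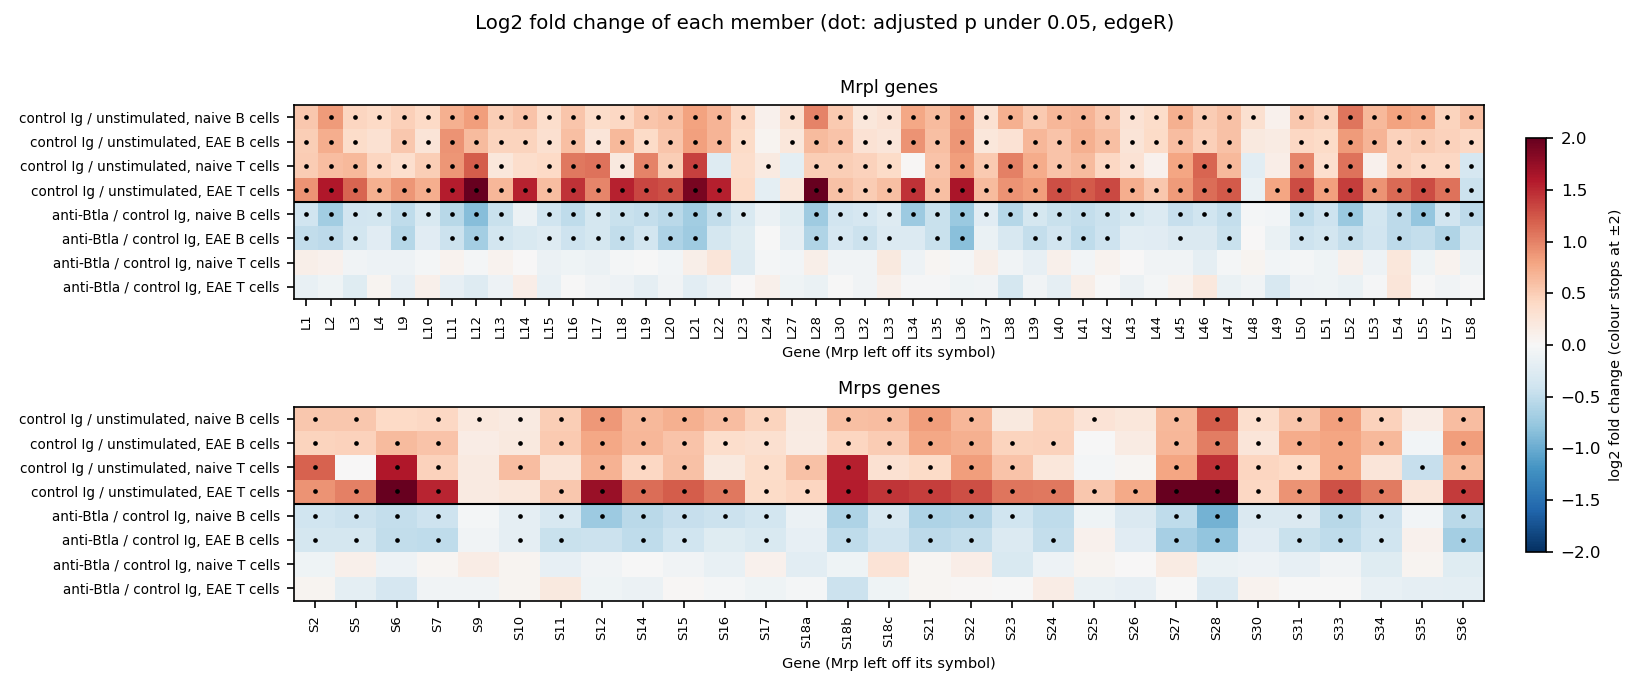
Log2 difference of each of the 78 members in 8 comparisons, 4 for anti-Btla against CtrlIg and 4 for CtrlIg against unstimulated cells, as a colour scale that stops at ±2; a dot marks an adjusted p under 0.05 and gene labels omit the letters Mrp. B cells show 65 and 50 members lower with anti-Btla in naive and EAE cells, and T cells show none.

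Mrps28, a small-subunit protein (chr3:8802146-8923918 of GRCm38, minus strand), had the largest effects of any member in naive B cells, in both comparisons. Its CPM was 18.9, 15.6 and 17.5 with antiBtla, 31.9, 38.2 and 26 with CtrlIg and 11.8, 18.1 and 14.6 in unstimulated naive B cells. No CtrlIg library overlapped either other arm. The log2 difference was -0.95 ± 0.13, edgeR adjusted p = 5.0e-05, for anti-Btla, and 1.21 ± 0.13, edgeR adjusted p = 3.1e-06, for activation. In EAE B cells it had 23.4, 18.4 and 15.6 CPM with antiBtla, 35.6, 28.2 and 29.5 CPM with CtrlIg and 21.1, 18.3 and 11.9 CPM unstimulated, again without overlap (-0.79 ± 0.12, edgeR adjusted p = 2.3e-04, for anti-Btla; 1.02 ± 0.11, edgeR adjusted p = 8.9e-06, for activation). Mrpl12, the large-subunit stalk protein that is also known to bind the mitochondrial RNA polymerase (chr11:120484613-120489065 of GRCm38, plus strand), had 27.3, 19.5 and 21 CPM with antiBtla, 40.1, 45.4 and 30.4 CPM with CtrlIg and 21.9, 25.3 and 21.9 CPM unstimulated in naive B cells. Every CtrlIg value lay above all others (-0.85 ± 0.14, edgeR adjusted p = 2.4e-04, for anti-Btla; 0.84 ± 0.14, edgeR adjusted p = 1.8e-04, for activation). In EAE B cells its replicates spread more, with 32.7, 26.5 and 15.7 CPM with antiBtla, 42.1, 35.4 and 33.3 CPM with CtrlIg and 27.9, 34.5 and 17.9 CPM unstimulated. The anti-Btla difference there was -0.68 ± 0.17, edgeR adjusted p = 0.0080, with the replicate block, and edgeR's adjusted p was 0.14 without it. Exons of the gene Gm16755 overlap Mrpl12 on the opposite strand.

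Mrpl36, a large-subunit protein with a very small bacterial counterpart (chr13:73328513-73332178 of GRCm38, plus strand), varied little between replicates. It had 43.8, 38.2 and 43.7 CPM with antiBtla, 65.8, 73.8 and 59 CPM with CtrlIg and 37.9, 44.2 and 36.9 CPM unstimulated in naive B cells (-0.74 ± 0.08, edgeR adjusted p = 4.6e-06, for anti-Btla), and 44.1, 34 and 35.2 CPM with antiBtla, 70.5, 59.1 and 60.8 CPM with CtrlIg and 41, 34.7 and 36.9 CPM unstimulated in EAE B cells (-0.83 ± 0.07, edgeR adjusted p = 1.7e-06, for anti-Btla). The antiBtla libraries lay within the range of unstimulated ones or near it, and CtrlIg libraries lay above both. Exons of Ndufs6, a complex I gene, overlap Mrpl36 on the opposite strand. Mrpl52, whose start-site window is printed above with an ETS and a YY1 core, had 41.6 ± 3.95 CPM with antiBtla, 66.2 ± 11.1 CPM with CtrlIg and 33.7 ± 2.98 CPM in unstimulated naive B cells (SD, n = 3 each; -0.74 ± 0.11, edgeR adjusted p = 8.9e-05, for anti-Btla; 1.08 ± 0.11, edgeR adjusted p = 1.6e-06, for activation). Its antiBtla libraries in EAE B cells (73.5, 54.5 and 41.4 CPM) overlapped CtrlIg (83.6, 65.6 and 69.3 CPM), with a difference of -0.47 ± 0.14, edgeR adjusted p = 0.019. Mrpl21, a large-subunit protein with a bacterial counterpart, differed by -0.69 with anti-Btla and 0.81 on activation in naive B cells, and by -0.71 and 0.82 in EAE B cells, all 4 called. Mrpl20 (-0.62 ± 0.09) and Mrpl57 (-0.60 ± 0.14) were also among the 8 members with the largest called decreases with anti-Btla in EAE B cells.

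Other members that led in naive B cells were Mrpl2, whose bacterial counterpart sits at the peptidyl transferase centre (-0.70 with anti-Btla and 0.86 on activation), Mrps21 (-0.62 and 0.83), Mrps33 (-0.56 and 0.83) and Mrpl34 (-0.72 and 0.77), all called in both comparisons. Mrpl11, at the base of the stalk where translation factors bind, had 20.7 ± 1.17 CPM with antiBtla, 26.3 ± 2.18 CPM with CtrlIg and 15.5 ± 3.08 CPM in unstimulated EAE B cells (-0.43 ± 0.11, edgeR adjusted p = 0.0077, for anti-Btla; 0.91 ± 0.10, edgeR adjusted p = 9.3e-06, for activation). Mrps27, a pentatricopeptide repeat protein of the small subunit, had 11.1, 10.2 and 12.6 CPM with antiBtla, 16.1, 18.2 and 16.8 CPM with CtrlIg and 12.1, 11.6 and 11.6 CPM in unstimulated EAE B cells. All 3 CtrlIg libraries lay above the other 6 (-0.67 ± 0.09, edgeR adjusted p = 1.0e-04, for anti-Btla). Mrps36 carries an Mrps name but its product is now known as an adaptor subunit of the alpha-ketoglutarate dehydrogenase complex, not a ribosomal protein. Its CPM nevertheless followed the rest, with 20.3, 15.9 and 17.7 with antiBtla, 29.6, 25.9 and 26.3 with CtrlIg and 18.1, 16.1 and 16.1 unstimulated in EAE B cells (-0.67 ± 0.07, edgeR adjusted p = 1.0e-05, for anti-Btla).

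**Figure D3:**
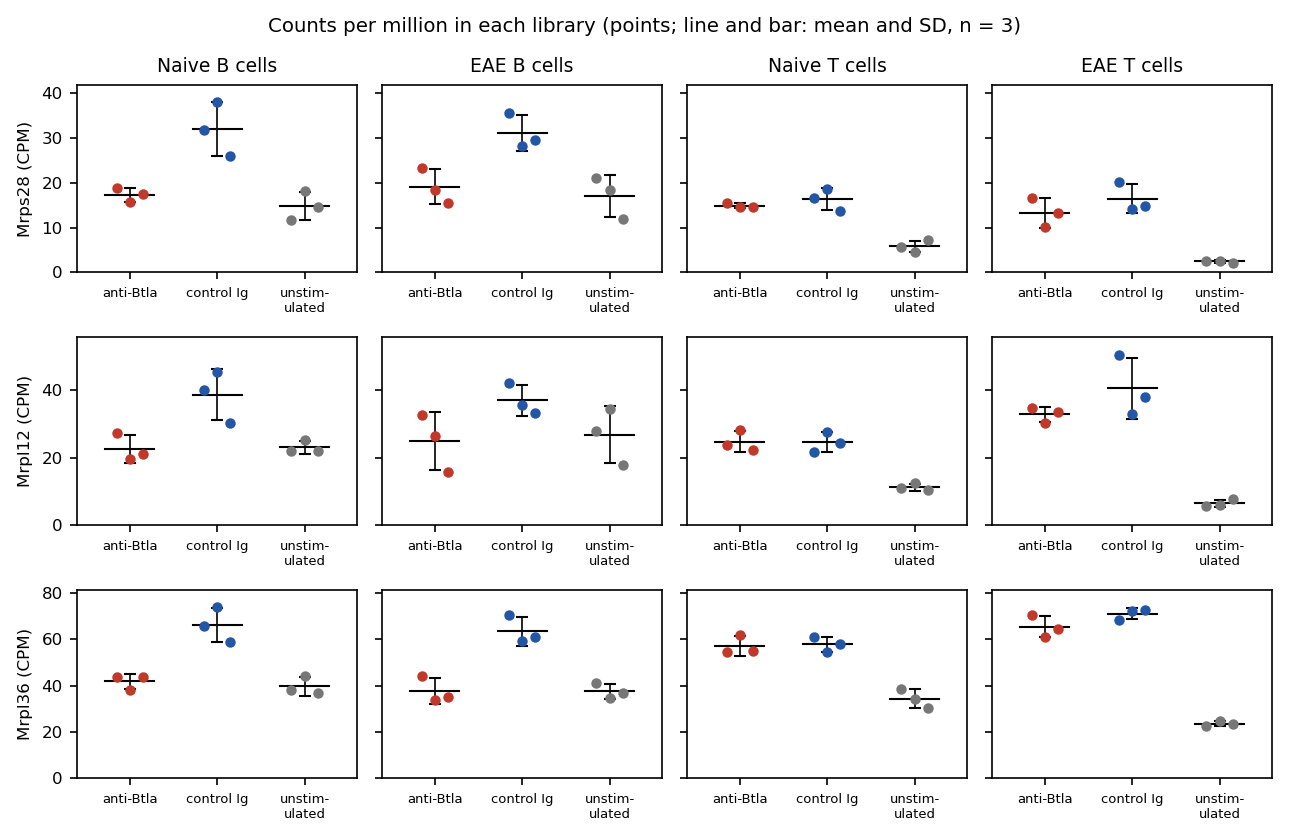
CPM of Mrps28, Mrpl12 and Mrpl36 (rows) in the antiBtla, CtrlIg and unstimulated libraries of naive and EAE B and T cells (columns); points are libraries, lines group means and bars SDs. In B cells CtrlIg stands above antiBtla and unstimulated cells (Mrps28 in naive B cells 17.3 ± 1.61, 32 ± 6.06 and 14.8 ± 3.18 CPM), and in EAE T cells both bead arms stand above unstimulated cells.

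The effects were spread over both subunits and both origins of the proteins. In naive B cells the median difference with anti-Btla was -0.45, -0.40, -0.43 and -0.41 for the 30 large-subunit proteins with a bacterial counterpart, the 21 mitochondria-specific large-subunit proteins, the 16 small-subunit proteins with a bacterial counterpart and the 10 mitochondria-specific small-subunit proteins, in that order, with 27, 16, 14 and 7 members called lower. For activation of naive B cells the medians were 0.55, 0.52, 0.54 and 0.50 and 29, 19, 14 and 7 were called higher. Over all genes in naive B cells 19.7% were called lower with anti-Btla and 22.7% higher on activation. The anti-Btla medians in EAE B cells were -0.39, -0.36, -0.42 and -0.42. For activation of EAE T cells they were 1.19, 0.85, 1.08 and 1.05. Mrps18a and Mrps18b, relatives of a bacterial protein, were counted among the mitochondria-specific large- and small-subunit proteins. No difference between these classes was tested. Genes of mitochondrial ribosomal proteins that carry other symbols went the same way in naive B cells. All 5 (Aurkaip1, Chchd1, Dap3, Gadd45gip1 and Ptcd3) were lower with anti-Btla and all 5 higher on activation, among them Aurkaip1 (0.68 ± 0.08, edgeR adjusted p = 3.7e-06, for activation).

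Mrpl3, Mrps2, Mrps7, Mrps12 and Mrps15, named for their role, were called lower with anti-Btla in naive B cells, and settings that ended a call stand beside it. Mrpl3, next to the peptidyl transferase centre in its bacterial counterpart, had 52.4, 51.8 and 55 CPM with antiBtla, 65.5, 67.8 and 61.9 CPM with CtrlIg and 54, 51 and 50.4 CPM in unstimulated naive B cells, with CtrlIg above both other arms (-0.38 ± 0.05, edgeR adjusted p = 6.1e-05, for anti-Btla). Only 38.0% of its counts in B cells and 32.3% in T cells fell on protein-coding transcripts, and on those alone the difference was -0.08 with edgeR's adjusted p at 0.54. Mrps12, at the decoding centre, was low, with 6.03, 3.66 and 5.24 CPM with antiBtla, 7.75, 8.81 and 6.70 CPM with CtrlIg and 3.99, 4.88 and 4.89 CPM unstimulated (-0.72 ± 0.19, edgeR adjusted p = 0.0074, for anti-Btla). Without antiBtla replicate 2 it missed the threshold (-0.50, edgeR adjusted p = 0.050). Mrps2 differed by -0.41 ± 0.07, edgeR adjusted p = 5.7e-04, with anti-Btla in naive B cells, Mrps15 by -0.47 ± 0.09, edgeR adjusted p = 5.8e-04, and Mrps7 by -0.41 ± 0.11, edgeR adjusted p = 0.011, a call that was lost without CtrlIg or antiBtla replicate 2 (-0.35 and -0.32).

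In none of the 4 anti-Btla comparisons of B cells were 8 members called, namely Mrpl27, Mrpl48, Mrpl49, Mrps9, Mrps18a, Mrps25, Mrps26 and Mrps35. The share of all genes called in none was not counted. All transcripts were counted here. Among these 8, the lowest shares of B cell counts on protein-coding transcripts were 36.3% (Mrps9), 39.95% (Mrps35) and 45.6% (Mrps18a). On such transcripts alone Mrps18a was called lower in naive B cells, as given below. Mrps26, a mitochondria-specific small-subunit protein with an ETS core in the window printed above, had 13.4, 10.9 and 11.5 CPM with antiBtla, 12.8, 15.4 and 13.3 CPM with CtrlIg and 12.8, 13.7 and 11.6 CPM in unstimulated naive B cells (-0.29 ± 0.13, edgeR adjusted p = 0.10, for anti-Btla). Mrpl24 was not called for activation in either B cell set. It had 57.2, 61 and 67.5 CPM with antiBtla, 62.4, 63.6 and 63.8 CPM with CtrlIg and 64.1, 62.2 and 65.7 CPM in unstimulated naive B cells, values that overlapped throughout (0.09 ± 0.06, edgeR adjusted p = 0.27, for activation). With all transcripts counted, Mrps35, a mitochondria-specific protein of the small subunit, was higher on activation in none of the 4 sets. It had 24.7, 24.9 and 27.6 CPM with antiBtla, 21.8, 27.8 and 25.9 CPM with CtrlIg and 24.8, 23 and 25.2 CPM unstimulated in naive B cells. Its group means over the 10 B cell groups went against the sum of the other 77 members (Pearson's r = -0.53), as did those of Mrps25 (-0.35) and Mrpl49 (-0.08). The other 75 members correlated positively with the rest, 67 of them above 0.8, with a median of 0.934, over 10 group means that share control libraries and total counts.

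Most members were higher after activation in T cells as well, and by more in EAE than in naive T cells. In EAE T cells 70 of 78 were higher and 1 lower in CtrlIg than in unstimulated cells (31.7% and 31.3% of 14572 genes, 63.1% in either direction), with a median of 1.05 against -0.07 over all genes. In naive T cells 59 were higher and 2 lower (27.1% and 23% of 15150 genes, 50.1% in either direction), with a median of 0.47 against -0.02. Groups did not overlap, CtrlIg being higher, for 71 members in EAE T cells (31.0% of genes) and 57 in naive T cells (25.3%). The difference of the activation effects, EAE minus naive T cells, was positive and called for 49 members and negative for 1, against 20.8% and 17% of genes, with a median of 0.57 against -0.03 over all genes. Markers of other cell types moved with these comparisons. CD8 T cell markers summed to between 13.2 and 1096 CPM over the T cell libraries. Their group means, given above, were far lower in EAE than in naive T cells. In each state they were lower in CtrlIg than in unstimulated cells. In EAE T cells myeloid markers summed to 27.8 to 78 CPM in CtrlIg and 131 to 359 CPM in unstimulated libraries, B cell markers to 7.87 to 45.4 and 17.4 to 163 CPM, NK markers to 5.55 to 7.23 and 26 to 50.6 CPM, and T cell markers to 2594 to 2717 and 1692 to 2075 CPM. All 8 myeloid, 6 B cell and 3 NK markers had counts in T cell libraries, and the markers' part in the members' changes was not tested.

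Mrps28 and Mrpl12 had some of the largest differences in EAE T cells. Mrps28 had 20.2, 14.3 and 14.8 CPM in CtrlIg and 2.67, 2.54 and 2.19 CPM in unstimulated EAE T cells, a 6.91-fold difference (2.79 ± 0.18, edgeR adjusted p = 1.8e-09). Mrpl12 had 50.5, 33 and 38 CPM in CtrlIg and 5.74, 6.04 and 7.79 CPM in unstimulated EAE T cells (6.03-fold; 2.59 ± 0.17, edgeR adjusted p = 2.1e-09), and 21.8, 27.7 and 24.3 CPM in CtrlIg and 10.9, 12.4 and 10.5 CPM in unstimulated naive T cells (1.20 ± 0.10, edgeR adjusted p = 1.1e-08). Neither gene's libraries overlapped between the arms. Mrps6, a small-subunit protein with a bacterial counterpart, was low in B cells (5.18 ± 0.718 CPM in CtrlIg and 4.21 ± 0.428 CPM in unstimulated naive cells) and led in T cells. It had 31.2, 27.8 and 28.3 CPM in CtrlIg and 3.07, 5.56 and 4.97 CPM in unstimulated EAE T cells (2.68 ± 0.17, edgeR adjusted p = 1.8e-09), and 19.3, 20.9 and 14.4 CPM in CtrlIg and 4.80, 7.10 and 5.94 CPM in unstimulated naive T cells (1.60 ± 0.13, edgeR adjusted p = 1.1e-08). Its exons overlap those of Slc5a3, an inositol transporter gene, on the same strand, so the reads of the pair cannot be fully separated. Mrps18b (1.57 in EAE and 1.56 in naive T cells), Mrpl21 (1.90 and 1.37), Mrps2 (0.90 and 1.18), Mrpl46 (1.12 and 1.17), Mrpl52 (1.38 and 1.08) and Mrpl36 (1.63 and 0.84) were also called in both sets. After activation of EAE T cells Mrps27 differed by 2.16 ± 0.18, Mrps12 by 1.73 ± 0.21, Mrpl11 by 1.57 ± 0.14, Mrps7 by 1.52 ± 0.16, Mrps15 by 1.22 ± 0.12 and Mrpl3 by 1.16 ± 0.08, all called.

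Mrpl34 and Mrpl18, both large-subunit proteins with bacterial counterparts, had the smallest p-values for the difference between EAE and naive T cells. Mrpl34 had 15.5, 13.6 and 14.2 CPM in CtrlIg and 5.74, 5.32 and 5.25 CPM in unstimulated EAE T cells (1.45 ± 0.14, edgeR adjusted p = 1.9e-07), but 11.9, 12.7 and 12.9 CPM in CtrlIg and 11.3, 14.6 and 12.8 CPM in unstimulated naive T cells (0.02 ± 0.11, edgeR adjusted p = 0.89). The difference of the 2 effects was 1.49 ± 0.16, edgeR adjusted p = 5.6e-08. Mrpl18 had 66.7, 65.8 and 66.5 CPM in CtrlIg and 19, 29.2 and 22.4 CPM in unstimulated EAE T cells, and 37.1, 38.1 and 40.0 CPM in CtrlIg and 31.8, 35.8 and 37 CPM in unstimulated naive T cells (difference of effects 1.41 ± 0.15, edgeR adjusted p = 6.9e-08). The unstimulated EAE T cells stood apart for Mrpl34, with 5.74 CPM as the highest of its 3 libraries and 11.3 CPM as the lowest of the 9 in the other groups. Mrpl42 (difference 0.97 ± 0.13) and Mrpl12 (1.45 ± 0.20) were also among the smallest p-values. Mrpl24 was the only member with a called negative difference (-0.31 ± 0.10, edgeR adjusted p = 0.020), and its call was lost when any 1 replicate number was left out (-0.20 to -0.39).

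No member was called for anti-Btla in T cells. The median over the members was -0.05 in naive T cells, where edgeR called 0 of 15150 genes, and -0.07 in EAE T cells, where it called 10 of 14572 (0.0686%), 7 of them higher (0.048%). At an unadjusted p under 0.05, 2 members were higher and 3 lower in naive T cells (8.24% of genes in either direction). In EAE T cells 0 were higher and 4 lower (9.32% of genes in either direction). DESeq2 called 0 members in naive and 1 in EAE T cells. For Mrps28 the difference in naive T cells was -0.13 ± 0.14, with 15.5, 14.7 and 14.5 CPM with antiBtla and 16.6, 18.6 and 13.8 CPM with CtrlIg, groups that overlapped. Mrps18b in EAE T cells had 28.1, 22.3 and 19.9 CPM with antiBtla and 36, 29.9 and 30.9 CPM with CtrlIg, without overlap (-0.44 ± 0.10, edgeR adjusted p = 0.15). The anti-Btla effect in naive B cells minus that in naive T cells was negative and called for 36 members (9.6% of genes) and positive for 0, with a median of -0.36. Mrpl21 (-0.77 ± 0.13, edgeR adjusted p = 9.7e-05), Mrpl36 (-0.66 ± 0.12, edgeR adjusted p = 3.0e-04), Mrps14 (-0.49 ± 0.09) and Mrpl13 (-0.48 ± 0.09) had the smallest p-values, and the count was 23, 18 and 18 without replicate 1, 2 or 3. In EAE cells the same difference was called for 21 members (7.52% of genes), led by Mrpl36 (-0.79 ± 0.13, edgeR adjusted p = 6.6e-04), but for 1 to 6 when a replicate number was left out and for 0 without the replicate block.

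IFNb had no called effect on any member in any of the 4 sets, and DESeq2 called no member either. At an unadjusted p under 0.05 there were 5 members in naive B (3.65% of genes) and 4 in EAE B cells (2.36%). In EAE T cells there were 6 (9.32% of genes) and in naive T cells 1 (6.11%). edgeR called no gene at all in B cells or naive T cells and 23 genes, all higher, in EAE T cells (0.158%), of which 12 were among the 13 protein genes of the mitochondrial genome. The IFNb labels were checked on 9 known interferon-stimulated genes (Isg15, Ifit1, Ifit3, Irf7, Mx1, Oasl2, Rsad2, Usp18 and Rtp4), chosen after these counts were seen, and none of the 9 was called in any of the 4 sets. Their summed CPM was 31.4 to 154 in the libraries labelled CtrlIg_IFNb and 31.1 to 106 in CtrlIg naive B cells, 25.9 to 79.7 and 23.7 to 94.7 in EAE B cells, 182 to 349 and 168 to 429 in naive T cells, and 131 to 316 and 109 to 208 in EAE T cells, ranges that overlap in all 4 sets. The log2 differences of the 9 genes were 0.21 to 0.87 in naive B, -0.41 to 0.09 in EAE B, -0.41 to 0.04 in naive T and 0.21 to 0.98 in EAE T cells. No difference in these 9 genes passed the test. Among the members, 21 were lower in every CtrlIg_IFNb than in every CtrlIg library of EAE T cells (11% of genes) and 1 was higher in this way (3.03%), and 44 were lower in all 3 same-numbered pairs (25.1% of genes). In the same libraries the protein genes of the mitochondrial genome held 6.32% ± 0.939 of counts with CtrlIg_IFNb and 2.07% ± 0.771 with CtrlIg (SD, n = 3 each), and their part in the members' values was not tested. In the other 3 sets 2 to 4 members were lower (1.32% to 3.47% of genes) and 1 to 5 higher (2.28% to 5.56%) without overlap. The anti-Btla effect with IFNb was called for 0 members in naive and EAE T cells (0.0132% and 0.0% of genes). At an unadjusted p under 0.05, 1 member in naive and 13 in EAE T cells were lower and 0 higher (6.08% and 9.73% of genes in either direction). In EAE T cells 14 members were lower in antiBtla_IFNb than in CtrlIg_IFNb without overlap (6.23% of genes) and 1 was higher (3.58%). Lower in all 3 same-numbered pairs were 42 members (22.5% of genes), and 2 were higher (12.4%).

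Activation effects differed between naive B and naive T cells in shares of members near those of all genes. The difference of effects, B minus T, was called positive for 6 and negative for 12 members (9.02% and 14.7% of genes), a split that turned to 12 and 9 with upper-quartile scaling and to 9 and 7 without replicate 2. Mrpl58 (0.89 ± 0.14, edgeR adjusted p = 2.3e-05), Mrps35 (0.57 ± 0.12), Mrpl22 (0.90 ± 0.21) and Mrpl34 (0.70 ± 0.17) were on the positive side, and Mrps6 (-1.25 ± 0.21, edgeR adjusted p = 5.5e-05), Mrps18b (-1.01 ± 0.15, edgeR adjusted p = 1.5e-05), Mrpl17 (-0.76 ± 0.10) and Mrps10 (-0.49 ± 0.08) on the negative side. In EAE cells the difference was positive for 1 member, Mrpl58, and negative for 49 (18.2% and 19.7% of genes), with a median of -0.56, and 26 were called in all without replicate 2. Medians over all genes were -0.04 in naive and 0.05 in EAE cells. Mrps6 (-2.04 ± 0.23), Mrps28 (-1.77 ± 0.21), Mrps18b (-1.14 ± 0.13) and Mrpl3 (-0.79 ± 0.09) led it. Levels of B and T cells were not tested against each other, because the 2 tables were quantified separately.

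Mrpl58 was the only member called higher on activation in both B cell sets and lower in both T cell sets. It lies at chr11:115403752-115412674 of GRCm38, plus strand, and its product, also known as Ict1, is a peptidyl-tRNA hydrolase built into the large subunit that releases stalled peptides. In naive B cells it had 15.8, 13.1 and 12.6 CPM with antiBtla, 19, 20.4 and 17.1 CPM with CtrlIg and 12.7, 14.1 and 13.4 CPM unstimulated (0.60 ± 0.11, edgeR adjusted p = 4.5e-04, for activation; -0.53 ± 0.11, edgeR adjusted p = 0.0017, for anti-Btla). For EAE B cells the activation difference was 0.42 ± 0.13, edgeR adjusted p = 0.021, a call lost without CtrlIg replicate 1 (0.32), unstimulated replicate 1 (0.38) or unstimulated replicate 3 (0.37), without the replicate block (0.44) and with total counts (0.29) or upper-quartile scaling (0.34). In naive T cells it had 29.2, 32 and 36.1 CPM in CtrlIg and 42.6, 44.6 and 42.8 CPM in unstimulated cells, with no overlap (-0.34 ± 0.08, edgeR adjusted p = 0.0023). In EAE T cells it had 18.6, 20.8 and 24.2 CPM in CtrlIg and 29.9, 30.9 and 28 CPM in unstimulated cells (-0.43 ± 0.13, edgeR adjusted p = 0.011), a call lost without CtrlIg replicate 1 (-0.21) or replicate 2 (-0.33) and with protein-coding transcripts only (-0.38). The EAE B minus EAE T difference was 0.85 ± 0.20, edgeR adjusted p = 0.0018, and 0.50 without replicate 1 (edgeR adjusted p = 0.13). An antisense gene, Ict1os, overlaps Mrpl58, and the start-site window of Mrpl58 is printed above. Mrps35 was the other member that fell in naive T cells, with 24.7, 25.9 and 20.3 CPM in CtrlIg and 36, 35.2 and 30.6 CPM in unstimulated cells (-0.47 ± 0.09, edgeR adjusted p = 2.5e-04), and in EAE T cells it had 29.5, 24.1 and 24.3 CPM in CtrlIg and 30.2, 18.2 and 20.7 CPM in unstimulated cells, which overlapped.

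The 3 Mrps18 genes encode relatives of the same bacterial protein that sit at different places, Mrps18a in the large subunit and Mrps18b and Mrps18c in the small subunit. Mrps18b behaved like the majority. It had 30.6, 28.8 and 30.4 CPM with antiBtla, 39.9, 50.8 and 39.8 CPM with CtrlIg and 26, 36.1 and 30.7 CPM in unstimulated naive B cells (-0.62 ± 0.09, edgeR adjusted p = 1.0e-04, for anti-Btla), and 32.8, 36.1 and 28.3 CPM in CtrlIg and 14.9, 10.3 and 9.98 CPM in unstimulated naive T cells (1.56 ± 0.11, edgeR adjusted p = 1.0e-09). Mrps18c had smaller effects, with 13.3, 12.6 and 13.7 CPM with antiBtla and 14.9, 17.2 and 14.6 CPM with CtrlIg in naive B cells (-0.32 ± 0.11, edgeR adjusted p = 0.029, a call lost without CtrlIg replicate 2, antiBtla replicate 1 or antiBtla replicate 2 at -0.23, -0.29 and -0.27). In EAE T cells it had 28.7, 26.9 and 27.4 CPM in CtrlIg and 8.95, 12.1 and 10.4 CPM in unstimulated cells (1.43 ± 0.16, edgeR adjusted p = 9.5e-07). Mrps18a was not called in B cells, with 18.9, 18 and 18.4 CPM with antiBtla, 19.4, 18.8 and 17.9 CPM with CtrlIg and 17.9, 18.7 and 16.8 CPM in unstimulated naive B cells (-0.11 ± 0.08, edgeR adjusted p = 0.32, for anti-Btla), and higher on activation in T cells (0.59 ± 0.11, edgeR adjusted p = 2.5e-04, naive; 0.43 ± 0.12, edgeR adjusted p = 0.0070, EAE). Counted on its protein-coding transcripts alone, which held 45.6% of its counts in B cells, Mrps18a gave -0.73 (edgeR adjusted p = 0.0012) for anti-Btla and 0.70 (edgeR adjusted p = 0.0011) for activation in naive B cells.

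**Figure D4:**
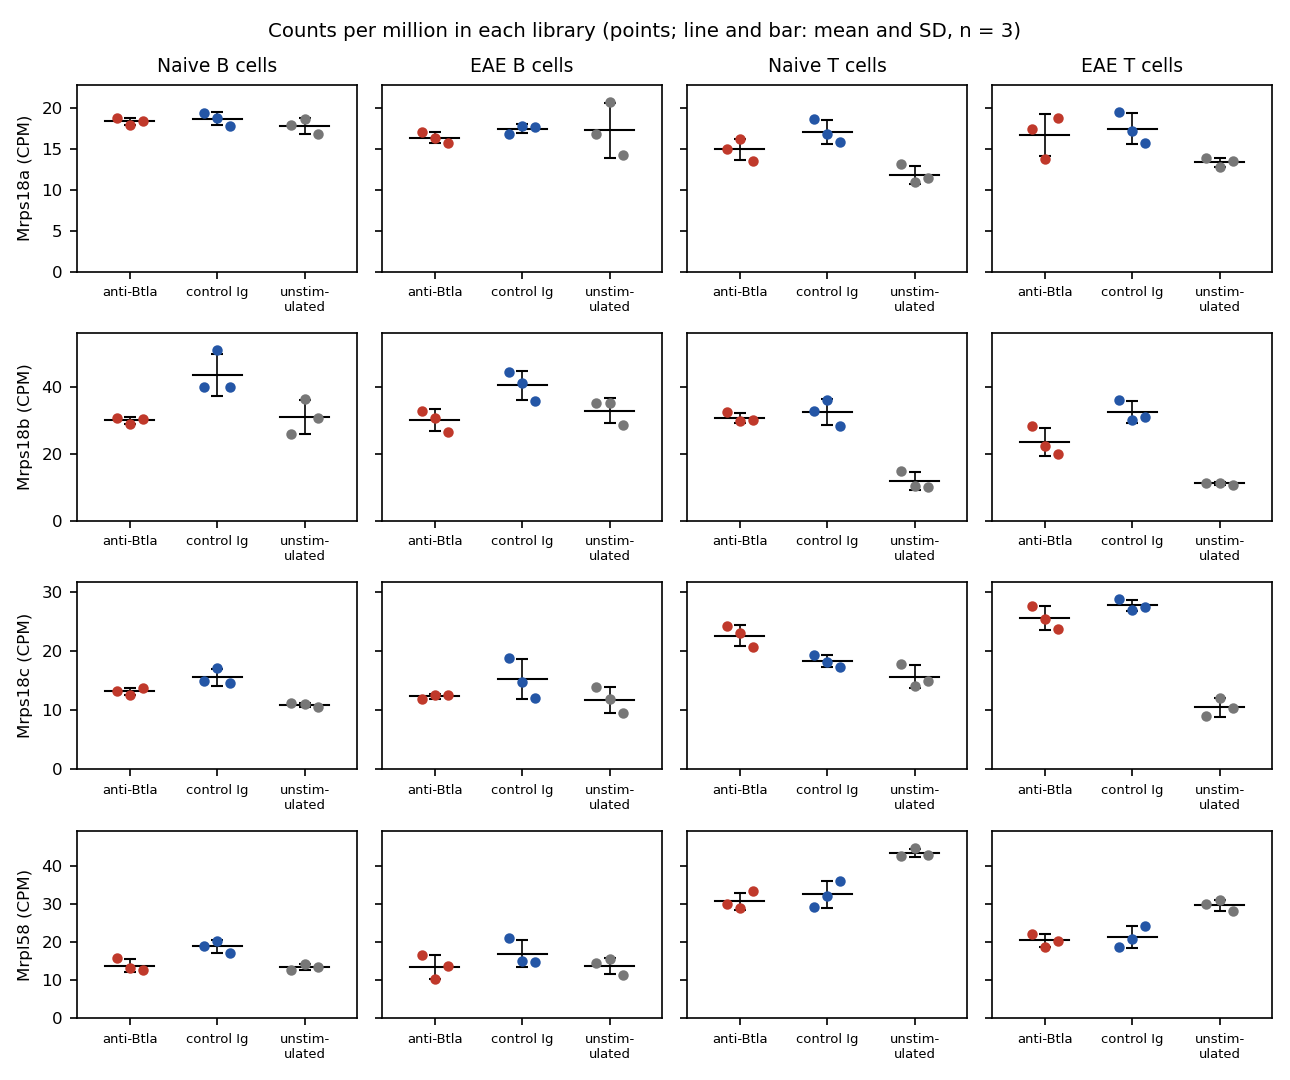
CPM of Mrps18a, Mrps18b, Mrps18c and Mrpl58 (rows) in the antiBtla, CtrlIg and unstimulated libraries of naive and EAE B and T cells (columns); points are libraries, lines group means and bars SDs. Mrpl58 lies lower in stimulated than in unstimulated T cells (32.4 ± 3.47 CPM in CtrlIg and 43.3 ± 1.08 CPM in unstimulated naive T cells), and Mrps18a is level across B cell arms.

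Between EAE and naive mice no member was called in B cells by edgeR, either unstimulated (0.0492% of genes) or with CtrlIg (0.0188%). At an unadjusted p under 0.05, 1 and 2 members were higher and 0 lower (7.2% and 5.6% of genes in either direction). In unstimulated T cells 25 members were lower and 3 higher in EAE than in naive cells (17% and 18.6% of 13918 genes), with a median of -0.21 against 0.00 over all genes, and 17 to 18 were called in all when a naive library was left out. Groups did not overlap, EAE being lower, for 42 members (31.2% of genes). The 3 higher members were Mrps2 (0.77 ± 0.12, edgeR adjusted p = 0.0012), Mrpl37 (0.61 ± 0.09, edgeR adjusted p = 0.0011) and Mrpl4 (0.33 ± 0.11, edgeR adjusted p = 0.039). Mrps2 had 27, 22.2 and 27.7 CPM in EAE and 17.5, 14.8 and 15.7 CPM in naive unstimulated T cells. The call of Mrpl4 was lost in 5 of 6 fits that left out 1 library (0.27 to 0.37). Mrpl34 (-1.18 ± 0.17, edgeR adjusted p = 8.2e-04), Mrps25 (-0.87 ± 0.15), Mrps16 (-0.84 ± 0.15) and Mrpl58 (-0.48 ± 0.09) had the smallest p-values among the lower ones. In CtrlIg T cells the direction was the opposite, with 37 members higher and 2 lower in EAE than in naive cells (27.7% and 23.9% of 13487 genes) and a median of 0.34 against -0.01 over all genes. Mrpl42 had 70.0, 62.8 and 62.6 CPM in EAE and 34.7, 40.5 and 36.2 CPM in naive CtrlIg T cells (0.89 ± 0.09, edgeR adjusted p = 3.1e-05), and Mrpl18 (0.86 ± 0.08), Mrpl11 (0.85 ± 0.11) and Mrps18c (0.69 ± 0.09) also led. Mrpl24 (-0.39 ± 0.09, edgeR adjusted p = 0.0052) and Mrpl58 (-0.54 ± 0.14, edgeR adjusted p = 0.0079) were the 2 lower members. In unstimulated cells the EAE libraries held 131 to 359 CPM of myeloid and 19.5 to 26.2 CPM of CD8 T cell markers, against 17.9 to 25.4 and 926 to 1096 CPM in naive libraries, and in CtrlIg cells plasma cell markers summed to 233 to 424 CPM in EAE and 70.2 to 84.5 CPM in naive libraries. Their part in these differences was not tested.

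Among genes that build and serve the mitochondrial ribosome smaller shares were called, and no test compared them with the members. Of 26 assembly factors 13 were lower with anti-Btla and 0 higher in naive B cells, and 12 were higher and 0 lower on activation. Over all genes 19.7% were called lower and 13.1% higher with anti-Btla in naive B cells, and 22.7% higher and 17.5% lower on activation. Ddx28, a helicase needed for large-subunit assembly, differed by -0.93 ± 0.11, edgeR adjusted p = 1.2e-05, with anti-Btla and by 1.15 on activation. Of 15 translation factors 5 were lower and 1 higher with anti-Btla, and 7 higher and 1 lower on activation, among them Gfm1, an elongation factor (-0.49 ± 0.06, edgeR adjusted p = 8.6e-06, for anti-Btla; 0.49 for activation), and Slirp, which stabilizes mitochondrial mRNA (-0.55 and 0.93). Of 17 tRNA synthetases 4 were lower and 1 higher with anti-Btla, a share of lower ones near that of all genes, and 7 higher and 1 lower on activation. Mars2, the methionyl-tRNA synthetase, was the 1 higher with anti-Btla (0.26) and the 1 lower on activation (-0.69). Of 11 genes of mitochondrial DNA transcription and upkeep 4 were lower and 0 higher with anti-Btla, including the elongation factor Tefm (-0.51) and the packaging protein Tfam (-0.26). Among 9 nuclear regulators of mitochondrial genes Myc differed by -0.95 ± 0.07, edgeR adjusted p = 1.1e-07, with anti-Btla and by 0.67 on activation, while Nrf1 (-0.34) and Esrra (-0.59) fell on activation.

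Cytosolic ribosomal proteins and nuclear-encoded subunits of oxidative phosphorylation, some of which join products of the mitochondrial ribosome in the respiratory complexes, went in the same directions as the members in B cells. Of 77 cytosolic ribosomal protein genes tested, 76 were lower with anti-Btla and 77 higher on activation in naive B cells (medians -0.47 and 0.82), and 53 and 74 in EAE B cells. Of 77 nuclear genes of oxidative phosphorylation subunits 73 were lower with anti-Btla and 74 higher on activation in naive B cells (medians -0.55 and 0.80), and in EAE T cells 71 of 75 were higher on activation (median 1.36). Cytosolic ribosomal protein genes were higher on activation in 62 of 77 cases in naive and 73 of 77 in EAE T cells. No test compared these sets with the members.

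The protein genes of the mitochondrial genome, which the mitochondrial ribosome translates, gave other counts. With anti-Btla in naive B cells 1 of 13 was lower and 0 higher (median -0.01, 19.7% of genes lower). On activation 7 were higher and 0 lower (median 0.22, 22.7% of genes higher). On activation of EAE T cells 11 of 13 were lower and 0 higher (median -1.25, 31.3% of genes lower), in the comparison in which 70 members were higher. As a share of all counts the 13 genes held 6.57, 7.59 and 10.2% in antiBtla_IFNb, 3.89, 3.76 and 2.96% in antiBtla, 5.85, 5.71 and 7.40% in CtrlIg_IFNb, 1.27, 2.81 and 2.12% in CtrlIg and 5.30, 5.28 and 7.00% in unstimulated EAE T cells. All CtrlIg libraries lay below those of every other arm. For the members, leaving mitochondrial genome genes out of the library totals gave a ratio of highest to lowest group mean of the summed CPM of 1.77 in EAE T cells, against 1.84 with them in.

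**Figure D5:**
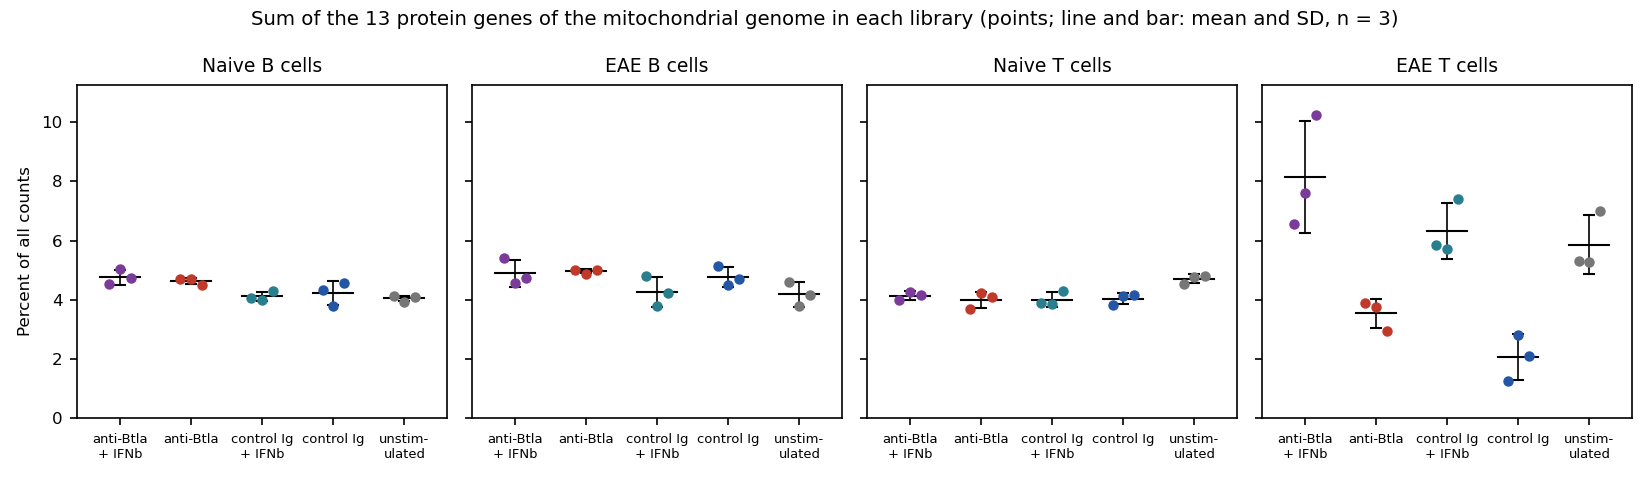
Share of all counts, in percent, held by the 13 protein genes of the mitochondrial genome in each of the 60 libraries, in 4 panels for naive and EAE B and T cells with the 5 arms on the horizontal axis; points are libraries, lines group means and bars SDs. In EAE T cells the CtrlIg libraries (2.07% ± 0.771) lie below the unstimulated ones (5.86% ± 0.986), whereas the members' sum was higher in CtrlIg.

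Across the 10 B cell groups the genes whose group means were most like the members' summed CPM were Psmb1, a proteasome subunit (Pearson's r = 0.998), Prmt1, an arginine methyltransferase (0.997), Fbl, the nucleolar rRNA methyltransferase (0.996), Nhp2, a snoRNP protein (0.996), and Cyc1, cytochrome c1 (0.996), out of 7956 genes with a mean of 10 CPM or more in every group. Across the 10 T cell groups they were Prkcsh (0.997), Ddx39 (0.994), Exosc2 (0.994), Pdap1 (0.993) and Tsn (0.992), out of 7263 genes. In T cells a member's correlation with the sum of the others had a median of 0.890, with 49 of 78 above 0.8 and 5 below 0, the lowest being Mrpl48 (-0.69) and Mrpl58 (-0.52). Over all activation comparisons 52 members were higher in all 4 sets. Over the 4 anti-Btla comparisons of B cells 44 members were lower in each. How many of all genes met either rule was not counted. Of the 65 members called for anti-Btla in naive B cells 41 were called under every other setting tried and with any single library left out, as were 53 of the 70 called for activation. In EAE T cells 60 of the 71 members called for activation were, and in EAE B cells 23 of the 50 called for anti-Btla.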

How the data were processed

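Total RNA from B cells and CD4+ T cells was sequenced on an Illumina instrument (HiSeq 1500), and the authors quantified transcripts with Salmon against GRCm38, per the labels and the methods of the study. Libraries followed standard Illumina protocols, and no source used here gives the strand setting. The deposited tables hold, per transcript, estimated counts that Salmon assigned and TPM values that it normalized for effective length and total. Here 67 tables were summed to genes with GENCODE annotation of GRCm38, and repeat runs of 7 T cell libraries were summed, giving 60 libraries. Transcripts without a gene held 0.158 to 0.210% of counts in B cells and 0.425 to 0.677% in T cells and were left out.

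Members and gene lists were chosen with earlier results of these data known. CPM is 1000000 times a gene's counts over the library total, and TPM was summed over transcripts. Estimated counts were rounded and tested with edgeR 4.0.16 (R 4.3.3; quasi-likelihood F-test, TMM, filterByExpr with minimum count 10, Benjamini-Hochberg over all genes), with the replicate number as a block, except between EAE and naive mice. The block follows the general statistical formula of the study, which has a replicate term; the design of its DESeq2 analysis of these RNA data is not stated. Each set of 15 libraries was fitted together, and 30 libraries for differences between sets. In all 32 comparisons were made. B and T tables hold different transcript sets and were tested together only for differences of effects. Named members were the 8 largest called changes per direction in activation and anti-Btla comparisons (10 CPM or more, the same direction in all 3 pairs), up to 4 of smallest p elsewhere, up to 5 against the majority, the 4 highest and lowest in TPM, and 13 role anchors. Likeness was Pearson's r over 10 group means. Replicates were compared by chi-square per degree of freedom over genes (4.39 to 55.2), and no pair looked like 1 library deposited again. On simulated counts the anti-Btla fit recovered, among changed genes at 10 CPM or more, 98% of 1.5-fold changes in naive B (16369 genes), 75.6% in EAE B (16706 genes), 92.3% in naive T (14935 genes) and 69.1% in EAE T cells (14239 genes). Unchanged genes called there numbered 12, 7, 6 and 7 in that order. The simulated counts held no replicate effect, no change in other arms and few changed genes, so these rates may not hold for the data. Alternatives were DESeq2 1.42.0, RLE, upper-quartile and total-count scaling, no filter, no block, protein-coding transcripts only and leaving out each library. Python 3.11.15, pandas 2.3.3, numpy 2.4.6, scipy 1.17.1 and matplotlib 3.10.9 were used.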

Additional observations from a re-analysis of the deposited data

Results flagged for a closer look

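These results are listed because an effect differed between 2 cell types or states by a test of the difference itself (edgeR, Benjamini-Hochberg adjustment over all genes). For activation of T cells, EAE minus naive, 49 members had a higher and 1 a lower effect (20.8% and 17% of all genes), with log2 differences of 1.49 for Mrpl34, 1.41 for Mrpl18, 0.972 for Mrpl42, 1.45 for Mrpl12 and -0.311 for Mrpl24. For activation of naive cells, B minus T, 6 were higher and 12 lower, shares near those of all genes (9.02% and 14.7%) in a split that turned to 12 and 9 with upper-quartile scaling, with 0.889 for Mrpl58, 0.574 for Mrps35, 0.898 for Mrpl22, 0.7 for Mrpl34, -0.762 for Mrpl17, -1.01 for Mrps18b, -0.487 for Mrps10 and -1.25 for Mrps6. For activation of EAE cells, B minus T, 1 was higher and 49 lower (18.2% and 19.7% of all genes), with 0.849 for Mrpl58, -1.14 for Mrps18b, -2.04 for Mrps6, -0.792 for Mrpl3 and -1.77 for Mrps28. For anti-Btla in naive cells, B minus T, 36 were lower (9.6% of all genes), with -0.769 for Mrpl21, -0.491 for Mrps14, -0.478 for Mrpl13 and -0.657 for Mrpl36. For anti-Btla in EAE cells, B minus T, 21 were lower (7.52% of all genes), with -0.788 for Mrpl36, -0.463 for Mrpl39, -0.452 for Mrps2 and -0.455 for Mrpl42, and 0 were called without the replicate block. Calls lost when 1 replicate number was left out include Mrpl24, and Mrpl22 (0.83) and Mrpl34 (0.77) in naive B minus T cells without replicate 3.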

How the results depend on the processing

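Counts of members stayed within 1.5 times the reported count 211 times under other settings, were smaller 10 times, larger 2 times and turned direction 1 time, and with libraries left out the numbers were 181, 10, 0 and 1. The exceptions follow, and their cause was not tested. Without the replicate block, members called for anti-Btla numbered 30 in EAE B cells and 32 with IFNb. For anti-Btla in EAE T cells DESeq2 called 1 member, Mrps18b, and with IFNb 1 was called without the filter on low counts. For EAE against naive unstimulated T cells 13 were called with protein-coding transcripts only and 17 to 25 with a library left out, and Mrpl4 turned to -0.0039 with protein-coding transcripts only. The difference of activation effects, naive B minus T, gave 21 with upper-quartile scaling (12 higher and 9 lower) and 12 to 18 with a replicate left out. That of anti-Btla gave 18 to 23. In EAE cells the activation difference gave 26 to 48 with a replicate left out, and the anti-Btla difference gave 13 with DESeq2, 6 with RLE size factors, 11 without the filter, 0 without the replicate block, 4 with protein-coding transcripts only, 1 with total counts, 4 with upper-quartile scaling and 1 to 6 with a replicate left out. With TMM effective library sizes the ratio of highest to lowest group mean of the summed CPM was 1.417 in naive and 1.383 in EAE B cells. Chosen after seeing the data were library totals without mitochondrial genome genes, and TPM from transcripts of 300 bases or more, which gave 198 TPM for Mrpl52 and 55.9 TPM for Mrps21.

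Labels do not say that a replicate number marks shared animals. Libraries of the same number deviated together, with median correlations of 0.118 in naive and 0.233 in EAE B cells and 0.121 in naive and 0.184 in EAE T cells, with 19, 27, 20 and 27 of 30 pairs over 0.1 in that order, and each of the 15 libraries of a set closest to its own number, which is a hint from the data and not the design. With total counts the median of all genes was -0.13 for activation and 0.10 for anti-Btla in naive B cells (with TMM -0.02 and 0.01), -0.18 and 0.12 in EAE B cells (with TMM -0.05 and 0.04), and -0.12 for activation of EAE T cells (with TMM -0.07). Genes called then split into 2837 higher and 4297 lower for activation (with TMM 3779 and 2905) and 3325 higher and 2471 lower for anti-Btla (with TMM 2173 and 3283) in naive B cells, and 2526 and 4949 (with TMM 3576 and 3190) and 3269 and 2140 (with TMM 2315 and 2809) in EAE B cells. Members called were then 62 and 50 for activation, with 1 lower in EAE B cells (Mrps35), and 53 and 39 for anti-Btla. With upper-quartile scaling the median in EAE B cells was -0.14 for activation and 0.11 for anti-Btla (with TMM -0.05 and 0.04), and for activation of T cells it was -0.16 in naive (with TMM -0.02) and -0.21 in EAE mice (with TMM -0.07), with 3278 and 4899 genes higher and lower in naive T (with TMM 4107 and 3481) and 4069 and 5476 in EAE T cells (with TMM 4626 and 4568). In the simulated counts described above, 1.5-fold changes were recovered less often in EAE than in naive cells. Those rates may not hold for the data, so they set no limit for it.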
